A study of Caenorhabditis elegans with 2 samples.

Results

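The 40 genes described here encode the neurotransmitter and peptide release apparatus that neurons of many classes share in Caenorhabditis elegans. They were named as a list, from the fusion machinery to axonal transport, and all 40 symbols matched genes among the 19973 nuclear protein-coding genes of the annotation. Occupancy of the transcription factor ZAG-1 was measured by ChIP-seq (sequencing of the DNA that is pulled down with a chromatin protein) in whole L3 larvae of mixed sex from strain OP83. The strain genotype is unc-119(ed3) III; wgIs83, where wgIs83 is an inserted transgene carrying eGFP-zag-1 and unc-119(ed3) is a mutation shared by every animal used. Both biological replicates form a single group, and no comparison between strains or conditions was possible. The target named for the antibody is zag-1, and both samples are described as ChIP-seq against eGFP-zag-1. The promoter that drives the tagged protein, and whether both replicates came from separate cultures, are not given in the labels. Libraries were of whole animals, so neurons and all other tissues contributed DNA together.

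ZAG-1 is a zinc finger and homeodomain protein of the ZEB type, best known as a repressor that guides how worm neurons differentiate and grow axons. At a synapse, kinesin motors deliver vesicle precursors, active zone proteins hold filled vesicles at the membrane, and SNARE proteins fuse them when calcium enters. Vesicle membrane is then retrieved by endocytic adaptors and dynamin, while dense core vesicles carry peptides that are cut from larger precursors on the way. Several of these genes, such as dyn-1, unc-116, snap-29 and unc-108, are also known to act in cells other than neurons.

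The summit sequences of 6 members are printed because they lie under 6 of the strongest regions of the 40 members. Each runs 5′ to 3′ on the strand of its gene, which is the minus strand in all 6, in ce11 (WBcel235) coordinates, with the bases read from the RefSeq copy of that assembly. Capitals mark the word GAGAGA or its complement TCTCTC, and none of the windows overlaps an exon. The egl-3 window is chrV:10174703-10174903 and the rab-3 window is chrII:5725152-5725352, both 201 bp around summits of the optimal set. Windows of 101 bp are given for unc-10 at chrX:7284908-7285008, unc-41 at chrV:9970278-9970378, sad-1 at chrX:13502433-13502533 and unc-51 at chrV:20005901-20006001. The word occurs 5 times in the rab-3 window, counting overlaps, 3 times in the unc-51 window and 0 times in the other 4. Regions of unc-108, which include the strongest of any member, are not printed. GAGAGA also lay within 50 bp of the summit of that strongest region.
egl-3: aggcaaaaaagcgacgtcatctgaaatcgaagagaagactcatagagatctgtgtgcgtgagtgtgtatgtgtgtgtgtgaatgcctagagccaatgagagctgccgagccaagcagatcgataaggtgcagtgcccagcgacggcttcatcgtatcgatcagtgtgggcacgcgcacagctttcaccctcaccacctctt
rab-3: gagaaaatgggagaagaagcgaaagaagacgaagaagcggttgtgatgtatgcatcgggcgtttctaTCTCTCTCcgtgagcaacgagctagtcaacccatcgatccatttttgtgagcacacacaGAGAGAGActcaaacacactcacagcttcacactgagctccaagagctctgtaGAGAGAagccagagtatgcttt
unc-10: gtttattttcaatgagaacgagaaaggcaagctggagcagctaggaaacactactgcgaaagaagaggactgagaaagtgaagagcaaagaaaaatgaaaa
unc-41: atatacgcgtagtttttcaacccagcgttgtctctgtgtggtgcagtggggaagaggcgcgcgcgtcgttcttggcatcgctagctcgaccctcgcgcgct
sad-1: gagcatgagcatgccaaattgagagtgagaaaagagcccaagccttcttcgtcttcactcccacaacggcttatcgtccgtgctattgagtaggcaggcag
unc-51: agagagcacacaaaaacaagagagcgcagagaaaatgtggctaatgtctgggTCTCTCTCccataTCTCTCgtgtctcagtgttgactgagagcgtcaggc

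The deposited data are 4 lists of regions, each with a summit and the authors' own signal score. The optimal set holds 357 regions that passed the authors' reproducibility selection, and its lowest score is 33.002. The joint list of both replicates holds 10005 regions, the replicate 1 list 30000 and the replicate 2 list 26202, and these longer lists include background regions by design. Each summit was assigned to whichever protein-coding gene starts a transcript closest to it, up to 5000 bp away. Scores are not scaled between lists, so levels are compared only within a list. Ranks count from the highest score of a list. Read depth is unknown, and the intervals below cover the counting of genes only. With 1 group no test between conditions could be made, and none is given.

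Members with an optimal region were few, but weaker regions lay near nearly all of them. An optimal region was given to 3 of the 40 members (7.5%, exact 95% interval 1.57 to 20.4), namely unc-108, egl-3 and rab-3, against 1.52% of all protein-coding genes. The members were chosen with earlier results of these data known, so the interval is no test against the share of all genes. In the joint list 37 of 40 members had a region (92.5%), against 30.7% of all genes. The replicate 1 list had 39 of 40, against 63.8%, and the replicate 2 list 39 of 40, against 59.1%. The same 39 members had a region in both replicate lists, against 44.8% of all genes. The 39 are all members but rpm-1.

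Room around the genes moves with these counts. The genome stretch nearer to a member's starts than to those of any other gene, within the distance limit, had a median of 7749.5 bp for members, against 3775 bp for all genes. Per 10 kb of that stretch, joint regions numbered 2.51 for members and 1.01 for all genes, and optimal regions 0.0784 and 0.0347. Among genes with a stretch of 5000 to 10000 bp, 21 of 23 members had a joint region, against 44.3% of genes of that class, and 3 of 23 had an optimal region, against 1.91%. With stretches of 10000 bp or more, 11 of 11 members had a joint region, against 75.7%, and 0 of 11 had an optimal region, against 4.995%. Members with 2500 to 5000 bp had a joint region in 4 of 5 cases, against 25.7%. The share of members with a joint region was thus above that of genes with like room in each of these classes, on small numbers of members.

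**Figure D1:**
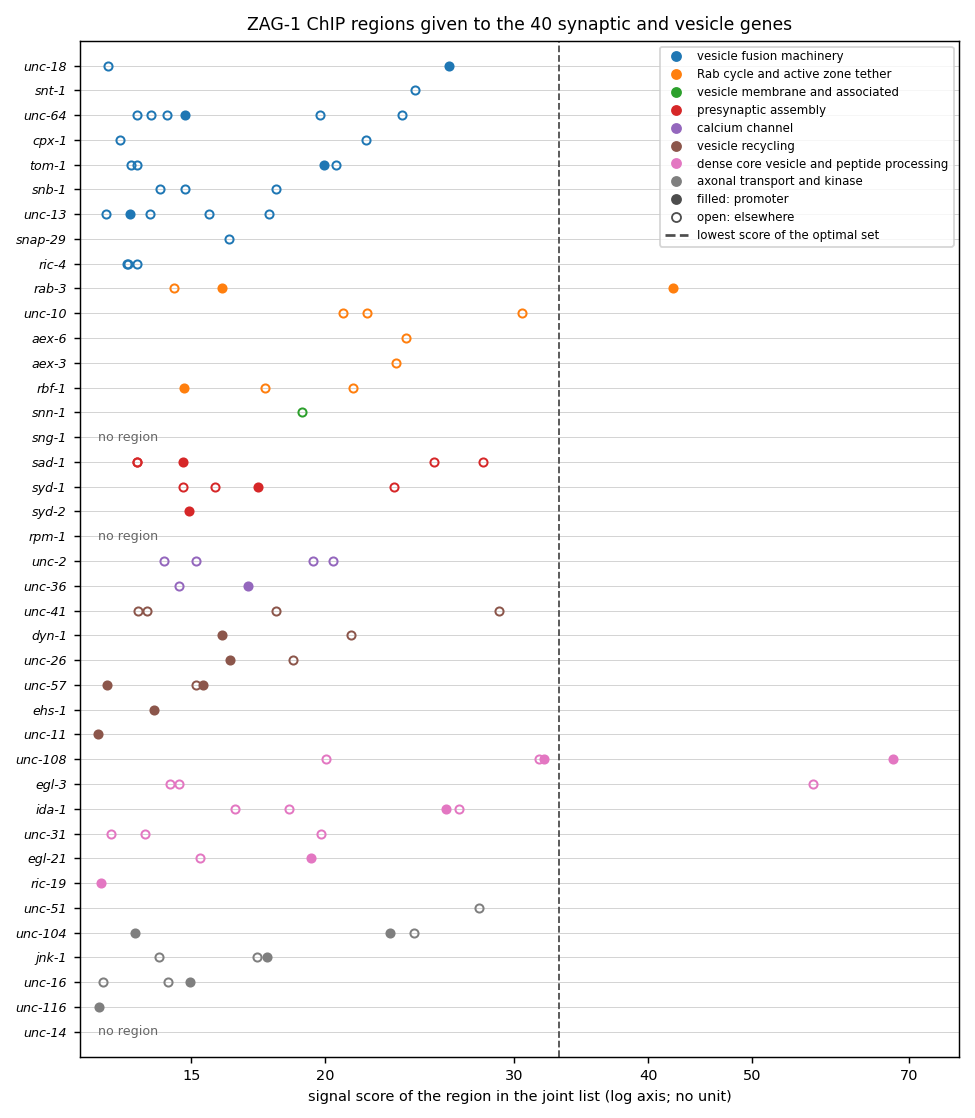
Signal scores (log axis, no unit) of the 96 joint-list regions given to the 40 genes, 1 line per gene, coloured by role, with filled points in promoters and open points elsewhere. The dashed line is the lowest score of the optimal set, 33.002: only unc-108, egl-3 and rab-3 have a point beyond it, and rpm-1, sng-1 and unc-14 have no point.

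Genes of dense core vesicles and peptide processing held 2 of the 3 optimal regions, in 2 of 6 genes, against 1.52% of all genes. Of 13 further dense core vesicle genes outside the 40, 1 had an optimal region. The strongest region among the 40 members belonged to unc-108, which encodes the small GTPase Rab2 that acts in dense core vesicle maturation. It lies at positions 3824228 to 3824611 of chromosome I and scored 67.7 in the joint list, at rank 74, with 26.1 at rank 82 in replicate 1 and 39.3 at rank 98 in replicate 2. Its summit is 527 bp upstream of an internal transcript start and 1537 bp inside the outermost start, outside any exon of the gene. The gene had 3 further joint regions, the first 83 bp upstream of the outermost start with a score of 32.0 at rank 382, which is the highest score of a member below the optimal set. Another lay 152 bp inside that start, with 31.7, and was found in both replicates. The last, 1128 bp upstream, scored 20.04.

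The region of egl-3, which encodes the proprotein convertase that makes the first cuts in neuropeptide precursors, lies at positions 10174611 to 10174994 of chromosome V. It scored 56.9 at rank 105 in the joint list, 19.1 at rank 160 in replicate 1 and 39.6 at rank 97 in replicate 2. The summit is intergenic, 1050 bp upstream of the nearest protein-coding start, and a noncoding gene, C51E3.12, starts 268 bp from it, nearer than egl-3 does. The enzyme that acts after it, the carboxypeptidase egl-21, had a promoter region 78 bp upstream of its start with a joint score of 19.4, at rank 1640.

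Other members of that role were lower. The receptor tyrosine phosphatase-like vesicle protein gene ida-1 had 4 joint regions, with scores of 26.7, 25.9, 18.5 and 16.5, of which the first lay in an intron 3103 bp inside the start. The gene unc-31 encodes CAPS, which primes dense core vesicles for release, and its strongest joint region scored 19.8, upstream at 2285 bp. That region ranked 465 in replicate 1 and had no region of replicate 2 within 100 bp. The gene ric-19, related to the diabetes autoantigen ICA69, had 1 region with a score of 12.3, at rank 9634. Its summit lay 531 bp from the start of the neighbouring gene pmlr-1, and it was the only one of the 96 with the start of another protein-coding gene within 1000 bp.

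Among genes of the Rab cycle and the active zone tether, rab-3 held the optimal region. RAB-3 is the small GTPase of synaptic vesicles. Its region lies at positions 5725060 to 5725443 of chromosome II and scored 42.2 at rank 191 in the joint list, with 24.8 at rank 89 in replicate 1 and 15.9 at rank 902 in replicate 2. The summit is 522 bp upstream of an internal transcript start, 2601 bp inside the outermost start and outside the gene's exons. A neighbouring replicate 1 region, 711 bp upstream of the same internal start, ranked 326 in that replicate and overlapped the replicate 1 region of rank 89. The joint region beside it, 721 bp upstream, scored 16.0 at rank 3578. The rab-3 locus therefore stood far higher in replicate 1 than in replicate 2.

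The other 4 genes of that role each had joint regions below the optimal set. The strongest region of unc-10, which encodes the active zone scaffold RIM that binds RAB-3, scored 30.5 at rank 429, and lay 4636 bp upstream of the nearest start, close to the distance limit. It had 2 further regions, with scores of 21.9 and 20.8. The gene aex-6 (Rab27) had 1 region with a score of 23.8, and aex-3, the exchange factor that activates RAB-3, had 1 with 23.3. Both lay upstream, at 2300 bp and 1094 bp, and neither had a replicate 1 region within 100 bp. The strongest replicate 1 region lay 2149 bp upstream for aex-6 and 496 bp upstream for aex-3. The rabphilin gene rbf-1, a RAB-3 and Rab27 effector, had 3 regions with scores up to 21.2.

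All 9 genes of the fusion machinery had a joint region and 0 had an optimal region. Their 27 joint regions had a median score of 14.2, with a range of 12.5 to 26.1. The highest belonged to unc-18, the Munc18 protein that binds syntaxin, 361 bp upstream of its start. The calcium sensor gene snt-1 (synaptotagmin) followed with 24.2 in an intron, then the syntaxin gene unc-64 with 23.6 upstream. The complexin gene cpx-1, a clamp and activator of fusion, reached 21.8, and tom-1 (tomosyn), an inhibitor of SNARE assembly, reached 20.4.

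The synaptobrevin gene snb-1 had 3 joint regions, all upstream of its start, led by 17.99 at 2465 bp. The priming factor gene unc-13 had 5, led by 17.7, and all but 1 were classed as intronic. That 1 was classed as promoter, 806 bp upstream of an internal start, and also lay inside the gene, outside its exons. The SNAP-25 gene ric-4 had 3 intronic regions with scores of 13.1 to 13.4, so each core SNARE gene was represented, at unequal scores. The related gene snap-29, known from endosomal trafficking, had a single region with a score of 16.3. The syntaxin gene unc-64 had the most joint regions of any member, 6, and 4 of them lay upstream of its start. Those with summits 1274 bp and 1054 bp upstream overlap. Overlapping regions were counted separately, for this and other members, so regions are not all separate sites.

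In presynaptic assembly, the kinase gene sad-1 had 5 joint regions, led by an intergenic one 1815 bp upstream with a score of 28.0, at rank 528. That region scored 10.9 at rank 1065 in replicate 1 and 15.4 at rank 1038 in replicate 2, so both replicates placed it alike. The gene syd-1, a RhoGAP-like organiser of the active zone, had 4 regions, the highest with 23.2 in an intron. The liprin-α gene syd-2, which acts with syd-1, had 1 region of 14.9, 9 bp upstream of its start. The ubiquitin ligase gene rpm-1 had none.

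Of the calcium channel subunits, the CaV2 pore gene unc-2 had 4 joint regions, all intronic, with scores of 14.1 to 20.3. It has the largest stretch of the 40, 41837 bp. The α2δ subunit gene unc-36 had 2 regions, led by a promoter one of 16.9, 775 bp upstream. That site ranked 718 in replicate 2 and had no replicate 1 region within 100 bp. The strongest replicate 1 region of unc-36 lay 602 bp upstream.

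Recycling genes all had joint regions, 13 in number over 6 genes, and 6 of these lay in promoters. The highest belonged to unc-41 (stonin), an endocytic adaptor for synaptotagmin, in an intron with a score of 29.1 at rank 480. It ranked 5006 in replicate 1 and 360 in replicate 2. The dynamin gene dyn-1, which cuts vesicles from the membrane, had 21.2 in a coding exon. The synaptojanin gene unc-26 reached 18.6 and the endophilin gene unc-57 reached 15.4. The Eps15 gene ehs-1 and the AP180 gene unc-11 had 1 region each, with 13.9 and 12.3, the last at rank 9786 of 10005.

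Transport genes and kinases had 11 joint regions in 5 of 6 genes. The kinase gene unc-51, a homologue of ULK and Atg1 that is needed for axon growth, had 1 region, 1466 bp upstream, with a score of 27.8 at rank 537. It ranked 475 in replicate 1 and 392 in replicate 2. The gene unc-104, the KIF1A motor that carries synaptic vesicle precursors, had 24.2 at 1916 bp upstream and 22.97 in its promoter at 98 bp. The JNK kinase gene jnk-1 had 17.6 and its scaffold gene unc-16 (JIP3) had 14.9. The kinesin-1 heavy chain gene unc-116 had 12.3, near the foot of the list. The vesicle proteins synapsin (snn-1) and synaptogyrin (sng-1) made up a role group of their own, in which sng-1 had no joint region. The region of snn-1 scored 19.02, 1170 bp upstream, with no region of either replicate within 100 bp. The strongest snn-1 regions of the replicates lay near it, 984 bp upstream in replicate 1 and 1329 bp upstream in replicate 2.

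The 3 members that were given no joint region differed in the replicate lists. By the nearest-start rule, 2 joint regions inside unc-14 and 1 inside sng-1 were not given to these genes. Over all members, 13 of 69 joint regions inside a member gene were given to another gene or to none. The gene rpm-1 had no region in any list, and the nearest joint summit was 14763 bp from its start. Having none is uncommon with as much room: of 4232 genes with a stretch at least as long, 140 (3.31%) had no region in the joint and replicate lists, against 21.8% of all genes. The gene sng-1 had 2 regions in each replicate, the strongest at rank 19721 in replicate 1 and 11742 in replicate 2. The gene unc-14, whose RUN domain protein works with kinesin-1 and UNC-51, had 5 regions in replicate 1 and 3 in replicate 2. Its strongest ranked 596 in replicate 1, 1526 bp upstream, and 13619 in replicate 2, inside an intron.

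Both replicates ranked unc-108 and egl-3 high, but for most members their strongest regions lay at different summits. Among the 357 highest regions of replicate 1, 3 members had a region (egl-3, rab-3 and unc-108), against 1.48% of all genes. Among the 357 highest of replicate 2, 2 members had one (egl-3 and unc-108), against 1.47%. The strongest regions of both replicates lay within 100 bp of each other in 9 of the 39 members with a region in both (23.1%), against 14.0% of genes with a region in both. These 9 were egl-3, rab-3, ric-19, sad-1, snap-29, syd-1, unc-108, unc-41 and unc-51. The median separation over the 39 was 843 bp, and in 19 members it was over 1000 bp. The strongest region ranked higher in replicate 2 for 21 members and in replicate 1 for 18.

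**Figure D2:**
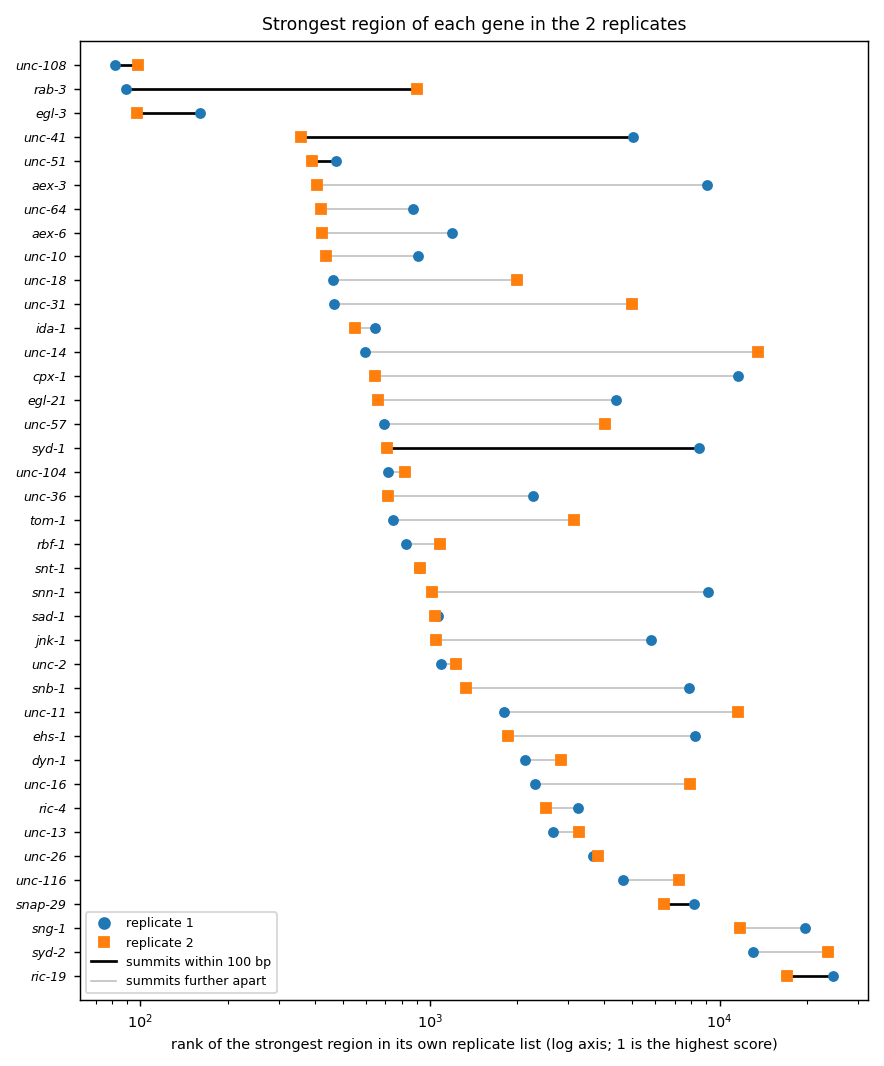
Rank of each gene's strongest region in its own replicate list (log axis, 1 is the highest score), circles for replicate 1 and squares for replicate 2, for the 39 genes with a region in both lists. Black bars join summits within 100 bp, which 9 genes have, and grey bars join summits further apart; unc-108 and egl-3 rank 82 to 160 in both replicates, while cpx-1, aex-3 and unc-14 differ widely.

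Wide rank differences went in both directions. The strongest region of cpx-1 ranked 11619 in replicate 1 and 646 in replicate 2, and that of aex-3 ranked 9087 in replicate 1 and 407 in replicate 2. Conversely, unc-31 ranked 465 in replicate 1 and 4985 in replicate 2. These 3 members had their strongest summits 3829 bp, 608 bp and 7723 bp apart, so the ranks compare different sites.

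Sites found in both replicates could also differ widely in rank, as the strongest joint site of ida-1 did, at 10443 in replicate 1 and 553 in replicate 2. Of the 96 joint regions of members, 37 (38.5%) were matched within 100 bp by both replicates, against 35.6% over the joint regions of all genes. Another 23 (24.0%) were found in replicate 1 alone, against 20.6%. Replicate 2 alone had 32 (33.3%), against 37.6%, and 4 (4.17%) were found in neither, against 6.23%. These shares depend on the match distance. Within 50 bp, both replicates matched 25 (26.0%), against 22.3%, and neither matched 14 (14.6%), against 14.8%. Within 200 bp, both matched 52 (54.2%), against 50.4%, and neither matched 1 (1.04%), against 1.53%. Across the 37 sites matched within 100 bp, the Spearman rho of both scores was 0.502, against 0.238 over 3279 sites of all genes. The Pearson r of log2 scores was 0.620, against 0.528. These describe sites that share their 2 libraries and are not independent. The site was ranked higher in replicate 2 at 25 of the 37 member sites (67.6%), against 54.4% for all genes.

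The replicate 2 score over the replicate 1 score had a median of 1.60 at the member sites, with a range of 0.644 to 3.16, against a median of 1.48 for all genes. Since the lists share no scale, this ratio is read only beside that of all genes, and a median above 1 is no difference in occupancy. The replicate 1 score was the higher at 5 of 37 member sites (13.5%), against 19.9% for all genes, and the lowest ratio was that of rab-3. The optimal regions of unc-108 and egl-3 lay on the side of the other sites, with higher scores in replicate 2.

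**Figure D3:**
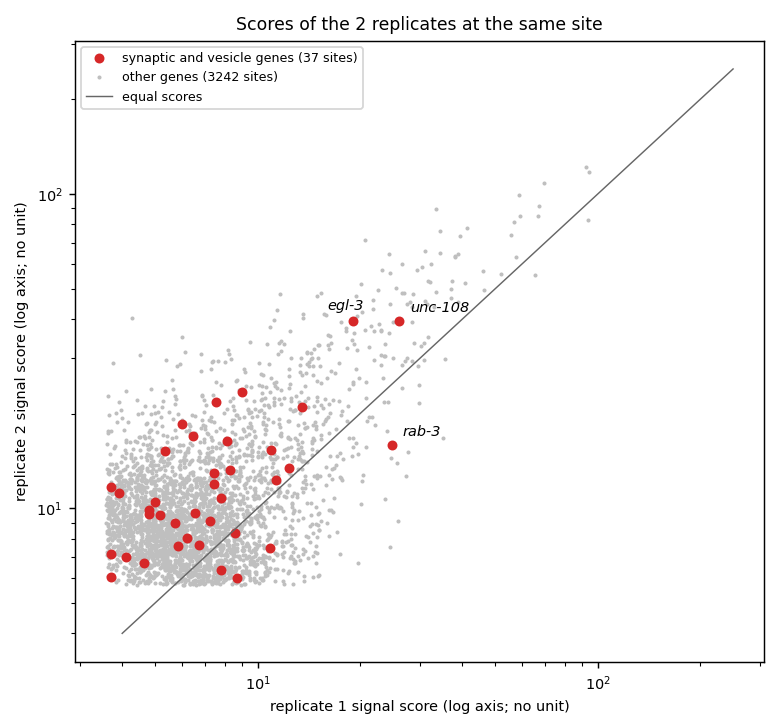
Replicate 1 score (horizontal) and replicate 2 score (vertical), both on log axes without a unit, at joint-list sites found in both replicates: 37 sites of the 40 genes in red, 3242 sites of other genes in grey, and a line of equal scores, which is a guide only because the lists share no scale. Most red points lie above the line, and rab-3 lies below it with 24.8 in replicate 1 and 15.9 in replicate 2.

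Member regions lay a little further from starts and more often in introns than those of all genes. The median distance from summit to nearest start was 1264.5 bp over the 96 member regions, against 1053 bp over 9209 joint regions of all genes. Upstream of the nearest start lay 54 (56.2%), against 52.8%. Promoters, which reach from 1000 bp before a transcript start to 100 bp after it, held 27 (28.1%), against 33.1%. Introns held 39 (40.6%), against 29.9%, intergenic stretches 23 (24.0%), against 22.7%, and coding exons 6 (6.25%), against 10.3%. Inside their own gene lay 56 of the 96. The first 1000 bp inside a start held 11.5% of member regions, against 19.7%, and the next 1000 bp held 19.8%, against 12.9%. Longer stretches leave more room for distant regions, and its part in these shares was not tested.

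**Figure D4:**
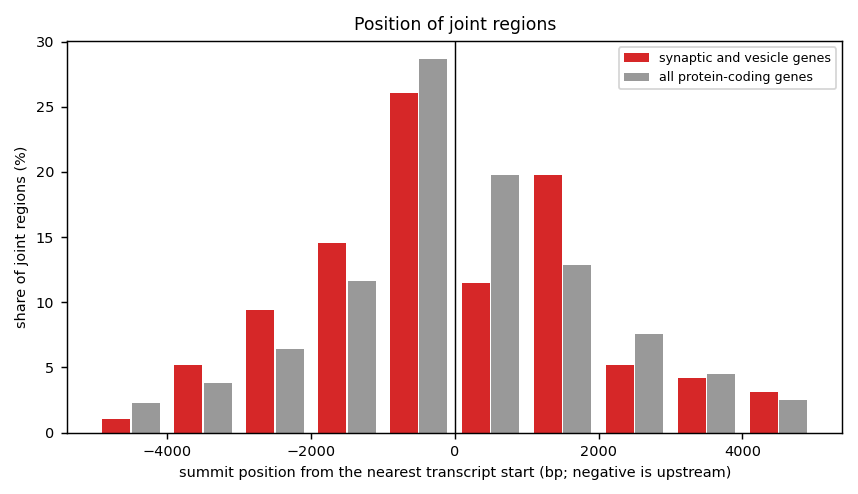
Share of joint-list regions (%) by position of the summit relative to the nearest protein-coding transcript start (bp, negative upstream), in bins of 1000 bp, red for the 96 regions of the 40 genes and grey for the 9209 regions of all protein-coding genes. The red bar is lower in the first bin inside the start (11.5% and 19.7%) and higher in the next (19.8% and 12.9%).

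Member regions scored somewhat above those of all genes. Their median joint score was 16.0, against 14.7, and the strongest joint region of a gene had a median of 20.4 over the 37 members, against 15.3 over all genes with a region. It ranked within the first 1000 for 15 members (37.5%), against 4.14% of all genes. It ranked within 2000 for 24 members, against 7.84%, and within 5000 for 32, against 17.5%. Members had up to 6 joint regions each, with 11 members at 1 and 11 at 3. More regions give more chances of a high strongest score, so that measure moves with the number of regions.

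The summits of member regions held a GA repeat more often than those of all genes. The word GAGAGA and 3 others of the same length were counted in the 101 bp centred on each summit, reading either strand. GAGAGA lay at 21 of 96 member summits (21.9%), against 9.02% of joint summits of all genes and 9.21% of 29314 windows of that length upstream of protein-coding starts. The 21 summits fell in 17 members, with 9 in promoters, 6 in introns and 6 in intergenic stretches. Among the optimal regions, those of rab-3 and unc-108 held it and that of egl-3 did not, against 38.5% of optimal summits of all genes.

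The higher share was seen in each class of rank. At ranks 1 to 1000, 9 of 20 member summits held GAGAGA (45%), against 27.6%; at ranks 1001 to 5000, 6 of 41 (14.6%), against 8.82%; and at ranks 5001 to 10005, 6 of 35 (17.1%), against 5.47%. Members with the word at a region described above include ida-1, unc-18, aex-6, snb-1, syd-1 and unc-51. GC content moved with it, at 38.6% ± 9.96 (SD, n = 96 windows) for members and 35.2% ± 9.58 for all genes, and its part in the word's share was not tested.

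The other words were rarer. GAGACG, which shares its first 4 letters with GAGAGA, lay at 10 of 96 member summits (10.4%), against 4.84%, and GACGCA, which can overlap GAGACG, at 5 (5.21%), against 3.99%. CACCTG, the word bound by vertebrate ZEB proteins, lay at 0 of 96 member summits, against 1.97% of joint summits of all genes and 3.13% of upstream windows. A match is a description of letters and not of a binding site.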

How the data were processed

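ZAG-1 ChIP-seq regions from 2 replicates were used, with library fragments of 150 to 350 bp per the labels. Per the notes deposited with the lists, each replicate list came from that replicate and a control, the joint list from both, and the optimal set from these by the irreproducible discovery rate. Neither aligner, caller nor threshold is given in the sources used here. The authors deposited a signal score for each region, whose levels were compared here within a list only, apart from the ratio of replicate scores at matched sites, and a −log10 q-value, which was not used to rank. The summit is another deposited column. The ce10 lists and the control reads were not used here.

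Analysis used ce11 (WBcel235), Ensembl release 115 gene models and RefSeq bases. Scripts used NumPy 2.4.6, matplotlib 3.10.9 and SciPy 1.17.1 under Python 3.11.15. Coordinates are 1-based. Each summit was assigned to whichever protein-coding gene starts a transcript closest to it, up to 5000 bp away, and sites matched between lists within 100 bp. The assignment was tested on simulated data, where 100% of 200 planted summits were recovered. The share with an optimal region has an exact Clopper-Pearson 95% interval. The members and lists were chosen with earlier results of these data known, so no list test was made, and counts are set beside those of all genes. Members with an optimal region, or a region among the 357 highest of a replicate, were named in full, and others by role with their strongest joint region. Alternatives changed the distance limit, the start and gene set, the match rule, the list length and the replicate used.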

Additional observations from a re-analysis of the deposited data

How the results depend on the processing

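The number of members with an optimal region was 2 or 3 under each alternative run. Allowing noncoding starts, or a limit of 1000 bp, left out egl-3. Keeping only optimal regions above the median score left out rab-3. With 1 replicate list in place of the lists made from both, 2 to 3 members had a region among its 357 highest, and the median distance over the whole list was 1326 to 1332 bp. The median distance of 1264.5 bp became 1075 bp for joint regions above the median score, 806 bp within 2000 bp, 358.5 bp within 1000 bp, 1485 bp from outermost starts and 1042 bp with all biotypes. A shorter limit keeps only the nearer regions, and the cause of the other shifts was not tested. Members with a region in both replicates numbered 23 among the 5000 highest of each replicate, in place of 39. Members whose strongest replicate regions coincided numbered 4 within 50 bp, 14 within 200 bp and 16 by overlap. The share of all genes was taken only within 100 bp, so these counts cannot be set beside one. Members with a region among the highest of both replicates numbered 9 for the 1000 highest regions, against 1.70% of all genes, and 23 for the 5000 highest, against 7.24%. No paired analysis was possible because both samples belong to 1 group. Read depth, which limits the precision of each score, is unknown, and with no other factor or untagged library, signal that any library would give cannot be told apart from ZAG-1 occupancy.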

Other observations

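A further 101 synaptic, vesicle and transport genes outside the 40 were looked up in the same lists. An optimal region was given to 10 of them (9.90%), and a joint region to 69 (68.3%), beside 7.5% and 92.5% of the 40. The shares of all genes were 1.52% and 30.7%. Their 172 joint regions came to 2.01 per 10 kb of stretch, beside 2.51. The highest was klc-1, which encodes a kinesin light chain, with a joint score of 106.9 at rank 28, 734 bp upstream of its start. The site ranked 16 in replicate 1 and 45 in replicate 2, but the replicate 2 summit was nearer to the start of another gene and was not given to klc-1. Another transport gene, unc-76, scored 60.7, and the endocytic adaptor gene dpy-23 scored 60.2.

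The lists were chosen with earlier results of these data known, so these counts are descriptions only. Optimal regions were given to 2 of 15 genes of axonal transport, 1 of 13 of dense core vesicles and 1 of 12 of recycling. Fusion and vesicle genes had 1 of 18, and active zone and assembly genes 0 of 21. The highest count was under channels and release signalling, where 5 of 22 genes had an optimal region, against 1.52% of all genes. They were egl-30, the Gq α subunit, with 51.3, egl-10, an RGS protein, with 40.0, eat-16, the RGS protein that acts on EGL-30, with 35.0, ccb-1, the β subunit of calcium channels, with 35.6, and dgk-1, the diacylglycerol kinase that opposes EGL-30 signalling, with 33.5. Others of that list had none, among them goa-1, the Go α subunit, whose strongest joint region ranked 401, and ric-8, which had no region, both named after their values were seen. The remaining genes were rab-5 with 33.3 and vps-51 with 33.0, the lowest score of the optimal set. Of the 101 genes, unc-76, dpy-23 and egl-30 had a region among the 357 highest of both replicates, against 0.711% of all genes. The site of dgk-1 ranked 138 in replicate 1 and 2160 in replicate 2.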
